A study of Mus musculus with 15 samples.

Results

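Transcripts of 9 receptors of the TNF receptor superfamily, Tnfrsf1a, Tnfrsf1b, Tnfrsf4, Tnfrsf9, Tnfrsf18, Tnfrsf25, Cd27, Fas and Ltbr, were followed in sorted mouse lung group 2 innate lymphoid cells (ILC2) and splenic regulatory T (Treg) cells. The members were chosen by name, and each matched 1 gene in both expression tables, 9 of 23529 genes in the table of the reporter mice and 9 of 23846 genes in the table of IL-33 and PBS injection. The second table held 2 libraries of ILC2 from mice given IL-33 (ILC2IL-33, named Expand and WT) and 3 of ILC2 from mice given the vehicle PBS (ILC2PBS, named nA, 1 and 2). The table of the reporter mice held 3 libraries of Thy-1.1+ ILC2 (ILC210, libraries 2, 4 and 8), 3 of Thy-1.1- ILC2 (ILC2act, libraries 1, 3 and 7), 2 of IL-10+ splenic Treg cells (Treg10+, libraries 6 and 10) and 2 of IL-10- splenic Treg cells (Treg10-, libraries 5 and 9). All 4 of these groups came from IL-33-injected 10BiTFoxp3 GFP mice, which carry Thy-1.1 on a bacterial artificial chromosome with the Il10 gene and GFP knocked into the Foxp3 locus, so that Thy-1.1 reports Il10 transcription and not secreted IL-10. IL-33 was given as 4 daily doses of 500 ng, mice of either sex were 6 to 14 weeks old, and the methods name C57BL/6 or 10BiTFoxp3 GFP mice as the source of lung ILC2, which leaves the strain of the ILC2IL-33 and ILC2PBS libraries not given for each library. By the legends, 5 mice were pooled in each experiment, both for IL-33 and PBS and for the reporter mice. The p-values below therefore measure the spread between pools or libraries and not between single animals.

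Receptors of this superfamily are trimeric surface proteins that bind trimeric ligands of the TNF superfamily. Those with a death domain in the cytoplasmic tail, such as TNFR1, FAS and DR3, can recruit TRADD or FADD and lead to NF-kB activation or to caspase-driven death. Those without it, such as TNFR2, OX40, 4-1BB, GITR and CD27, bind TRAF adaptors and act mainly as costimulatory receptors of lymphocytes, and several are known as surface markers of Treg cells. The lymphotoxin beta receptor, encoded by Ltbr, is known mainly from stromal, epithelial and myeloid cells, while its ligands are made by lymphocytes.

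The values are FPKM, fragments counted per transcript length and scaled for library size, so levels of different genes can be set side by side per length within a table. They were floored at 1 FPKM and tested on the log2 scale, and a gene was called where the Benjamini-Hochberg adjusted p was below 0.05 and the groups differed by a fold of 2 or more. On this floored scale the change of a gene near or under 1 FPKM is understated. Between 10514 and 12333 genes lay above 1 FPKM per library. The read depth of each library is unknown, and steps in the low values put it between 0.394 times (Treg10+ library 6) and 1.09 times (ILC210 library 8) that of ILC2act library 1 in the reporter table. The summed FPKM of 8 ILC2 markers was 2104 to 2652 in ILC2IL-33 and 957 to 1694 in ILC2PBS libraries, and 2475 to 3297 in ILC210 and 2804 to 3045 in ILC2act libraries. In Treg cells 6 matched Treg markers summed to 1230 and 1405 in Treg10+ and to 1108 and 1148 in Treg10- libraries.

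The 9 genes lie on 3 chromosomes, given here in GRCm38 as in the deposited tables. Tnfrsf1b (chr4:145212368-145246870), Tnfrsf9 (chr4:150920155-150946102), Tnfrsf25 (chr4:152116343-152120111), Tnfrsf4 (chr4:156013695-156016589) and Tnfrsf18 (chr4:156026342-156028891) are on chromosome 4. Cd27 (chr6:125232622-125237027), Ltbr (chr6:125306571-125313870) and Tnfrsf1a (chr6:125349723-125362483) follow each other on chromosome 6, and Fas (chr19:34290659-34327770) is on chromosome 19. Tnfrsf4 and Tnfrsf18 are neighbours 9.71 kb apart with no protein-coding gene between them in RefSeq, and Ltbr and Tnfrsf1a are 35.8 kb apart with 1 coding gene between them. An antisense transcript, Gm16008, overlaps exons of Tnfrsf18 on the other strand, and the library kit does not mark strand, so reads of the pair cannot be told apart.

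Promoter windows of 300 bases, 250 before and 50 after an annotated start, were taken from RefSeq for GRCm38.p6, which gave 11 windows for the 9 genes. The windows below belong to the receptors on which the results turn: Tnfrsf1a, Ltbr and Fas, which were lower in ILC2IL-33 than in ILC2PBS, and Tnfrsf4, Tnfrsf18 and Tnfrsf9, which set Treg cells apart from ILC2. Each is written on the strand of its gene, and capitals mark matches on either strand to the STAT dimer motif TTCNNNGAA, the AP-1 motif TGANTCA or the NF-kB consensus.
Tnfrsf1a, chr6:125349473-125349772, plus strand: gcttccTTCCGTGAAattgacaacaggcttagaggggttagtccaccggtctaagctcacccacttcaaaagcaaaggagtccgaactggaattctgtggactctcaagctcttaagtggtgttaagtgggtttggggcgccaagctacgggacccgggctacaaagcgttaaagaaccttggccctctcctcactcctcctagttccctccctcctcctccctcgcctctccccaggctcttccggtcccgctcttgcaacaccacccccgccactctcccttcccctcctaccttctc
Ltbr, chr6:125313836-125314135, minus strand: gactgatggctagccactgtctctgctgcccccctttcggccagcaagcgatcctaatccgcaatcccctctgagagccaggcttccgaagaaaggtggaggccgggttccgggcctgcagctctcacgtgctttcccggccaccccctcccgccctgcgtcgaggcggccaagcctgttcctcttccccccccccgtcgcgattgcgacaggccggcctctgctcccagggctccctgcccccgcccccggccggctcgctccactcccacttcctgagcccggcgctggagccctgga
Fas, chr19:34290409-34290708, plus strand: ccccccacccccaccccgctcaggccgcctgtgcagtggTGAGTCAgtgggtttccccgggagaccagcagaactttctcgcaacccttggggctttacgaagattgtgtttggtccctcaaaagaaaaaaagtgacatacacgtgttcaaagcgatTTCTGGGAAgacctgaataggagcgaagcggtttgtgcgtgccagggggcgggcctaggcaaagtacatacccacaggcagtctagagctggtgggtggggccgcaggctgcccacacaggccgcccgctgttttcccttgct
Tnfrsf4, chr4:156013445-156013744, plus strand: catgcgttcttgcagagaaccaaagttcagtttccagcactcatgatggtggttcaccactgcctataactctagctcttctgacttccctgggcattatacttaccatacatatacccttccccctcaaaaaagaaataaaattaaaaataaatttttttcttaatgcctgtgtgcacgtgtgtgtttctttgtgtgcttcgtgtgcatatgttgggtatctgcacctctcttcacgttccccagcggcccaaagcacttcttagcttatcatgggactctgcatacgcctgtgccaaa
Tnfrsf18, chr4:156026072-156026371, plus strand: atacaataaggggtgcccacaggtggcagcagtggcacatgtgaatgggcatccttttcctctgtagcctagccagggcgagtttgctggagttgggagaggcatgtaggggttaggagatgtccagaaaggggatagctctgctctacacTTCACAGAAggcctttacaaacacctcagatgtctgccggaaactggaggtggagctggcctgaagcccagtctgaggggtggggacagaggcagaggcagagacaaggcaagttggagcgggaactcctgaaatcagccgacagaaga
Tnfrsf9, chr4:150927749-150928048, plus strand: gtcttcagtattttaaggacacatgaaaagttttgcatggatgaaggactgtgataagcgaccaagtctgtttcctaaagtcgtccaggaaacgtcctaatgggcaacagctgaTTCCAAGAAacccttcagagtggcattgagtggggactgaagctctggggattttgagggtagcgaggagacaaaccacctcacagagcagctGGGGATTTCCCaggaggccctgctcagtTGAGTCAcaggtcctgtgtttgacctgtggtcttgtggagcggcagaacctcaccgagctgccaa

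The window of Tnfrsf9 is the second of its 2 windows, at an annotated start inside the gene, and holds a STAT dimer match at position -136 from the start, overlapping NF-kB matches at -43 and -42 and an AP-1 match at -15. STAT dimer matches stood at -244 in Tnfrsf1a, -93 in Fas and -99 in Tnfrsf18, and an AP-1 match at -211 in Fas. The windows of Ltbr and Tnfrsf4 held none of these 3 motifs. Nor did the first window of Tnfrsf9, which lies at the start of the deposited locus and is not printed here. The Ltbr window was the richest of the 11 in CpG, with 23 CpG and a GC content of 70%, against 6 CpG and 43.7% for that of Tnfrsf4 and a median of 7 CpG over all 32851 windows. Of 8 motifs searched on both strands, the STAT dimer motif was found in windows of 6 of the 9 genes, Tnfrsf1b and Tnfrsf25 being the others, against 8.3% of all windows. The NF-kB consensus was found in windows of 2 genes (8.46% of all windows), TGANTCA in 2 (7.81%), CCGGAAG in 2 (8.86%), TGTGGT in 2 (16.8%), GGGCGG in 5 (35.7%), and AGATAA (11.2%) and TATAAA (13.6%) in none. A match to such letters is a description of the sequence and no measure of binding.

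Tnfrsf18 was the most abundant of the 9 transcripts in each of the 4 ILC2 groups, while Tnfrsf4 was the most abundant in both Treg groups. In ILC210, Tnfrsf18 averaged 150 ± 29.9 FPKM (SD, n = 3), Tnfrsf1b 107 ± 2.57 FPKM and Tnfrsf25 55.9 ± 12.7 FPKM. In ILC2act, Tnfrsf18 averaged 187 ± 21.7 FPKM, Tnfrsf25 97.5 ± 12.9 FPKM and Tnfrsf1b 90.0 ± 4.49 FPKM (SD, n = 3), and the last 2 overlapped between libraries. Ltbr was the least abundant in ILC2IL-33, ILC2act, Treg10+ and Treg10-, and Tnfrsf4 in ILC2PBS and ILC210. The plot of FPKM by library shows the 9 receptors with the 2 tables apart, since levels set across tables would also compare library preparations and sequencers.

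**Figure D1:**
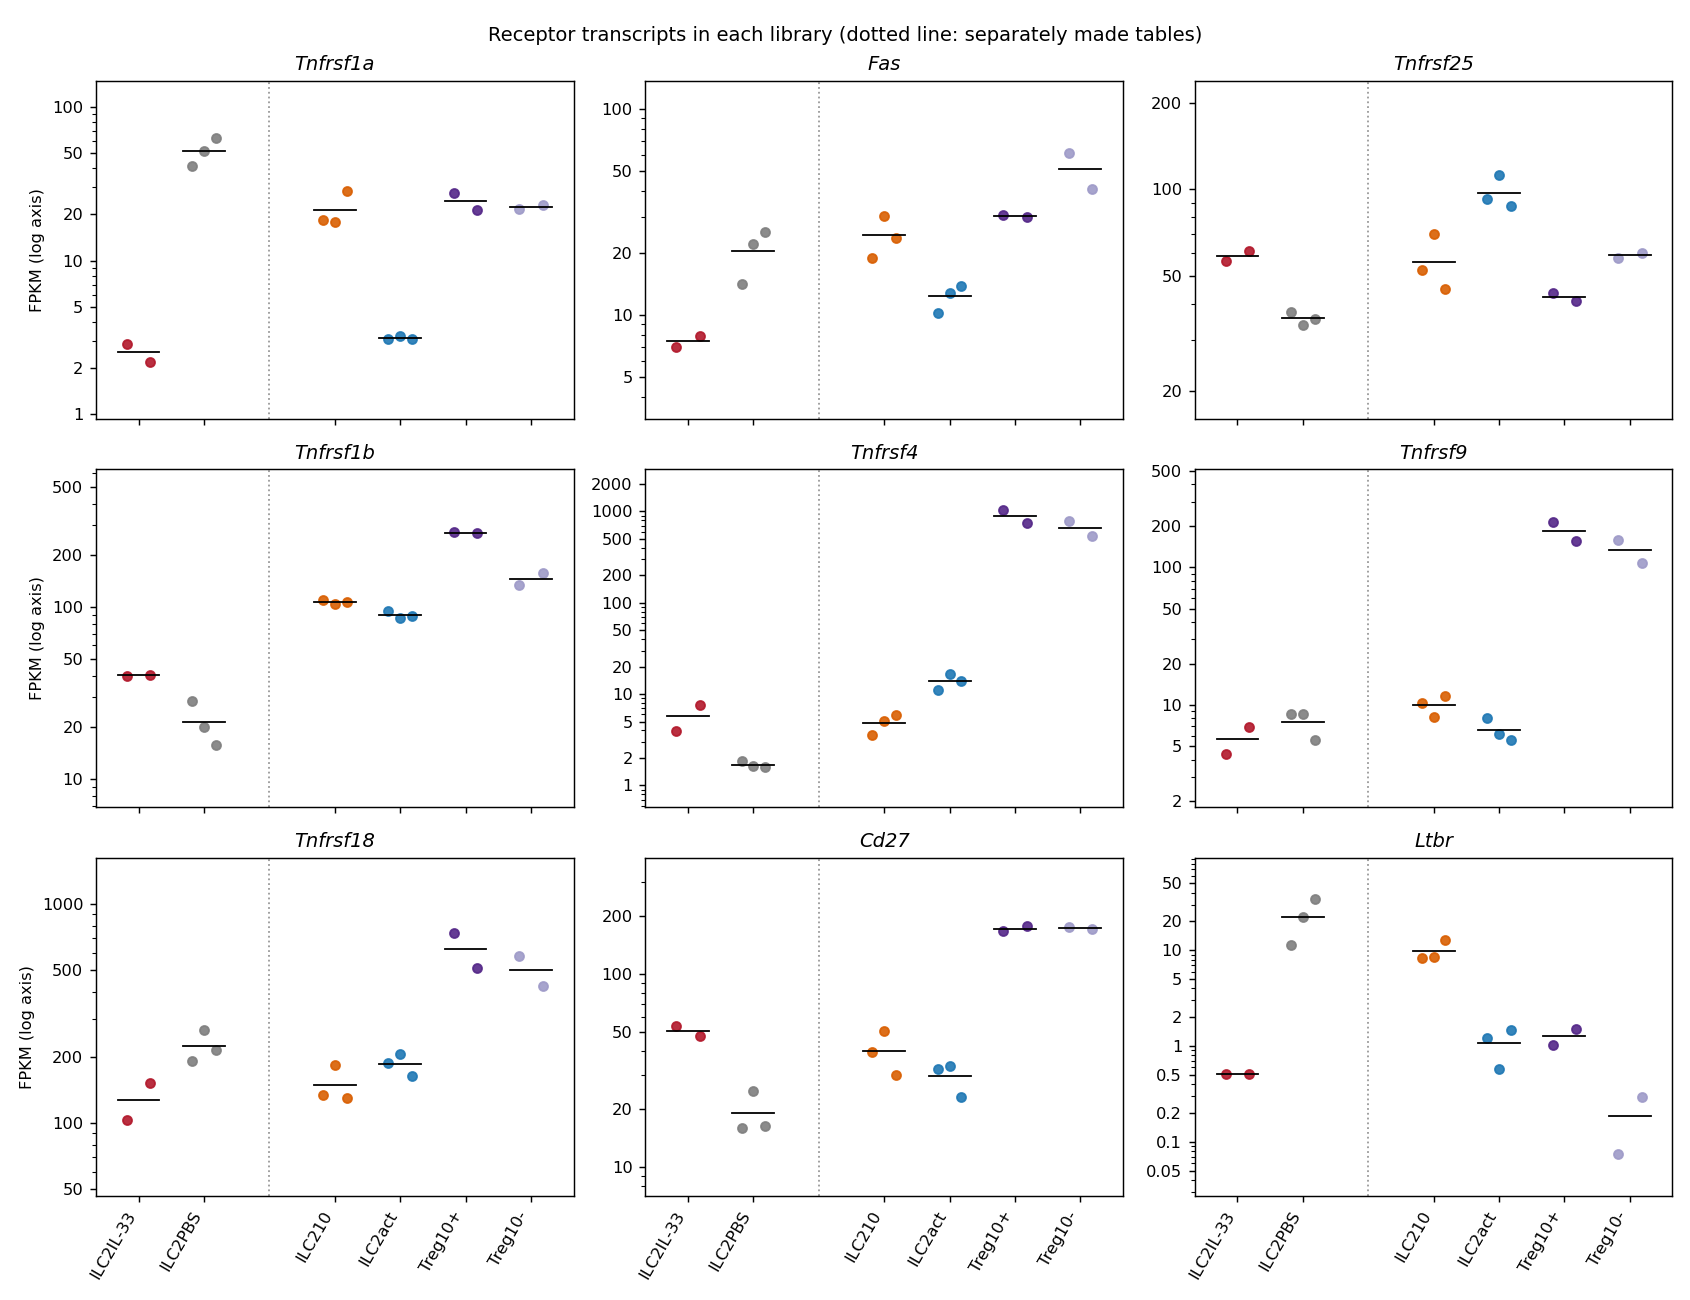
FPKM of the 9 receptors (y, log axis) in each library of the 6 groups (x), with a point per library and a line at the group mean. The groups left and right of the dotted line come from different tables. Tnfrsf1a and Ltbr lie low in ILC2IL-33 and ILC2act and high in ILC2PBS and ILC210, and Tnfrsf4 and Tnfrsf9 lie above 100 FPKM only in Treg libraries.

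ILC2 from IL-33-injected mice differed from ILC2 of PBS-injected mice in 5 of the 9 receptors. Tnfrsf1a, Ltbr and Fas were lower and Tnfrsf4 and Cd27 were higher after IL-33. Tnfrsf1a, which encodes the death domain receptor TNFR1, had 2.86 and 2.21 FPKM in the ILC2IL-33 libraries Expand and WT, against 41.6, 51.4 and 62.4 FPKM in the ILC2PBS libraries nA, 1 and 2. Both ILC2IL-33 libraries lay far under every ILC2PBS library. The log2 fold change was -4.35 (SE 0.24, adjusted p = 4.49e-05, limma). Fas, the receptor of FAS ligand, had 6.97 and 7.94 FPKM in ILC2IL-33, against 14.1, 22.2 and 25.1 FPKM in ILC2PBS libraries nA, 1 and 2. The groups did not overlap, and the difference was -1.42 on the log2 scale (SE 0.28, adjusted p = 0.00637, limma). Without the library Expand or WT, which leaves 1 ILC2IL-33 library assumed to vary like the other group, the Fas call was lost (adjusted p = 0.125 and 0.108, limma).

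Ltbr, the receptor of lymphotoxin and LIGHT, had 0.505 and 0.513 FPKM in ILC2IL-33, against 11.3, 22.1 and 34.0 FPKM in ILC2PBS libraries nA, 1 and 2. Both ILC2IL-33 values lay under the floor of 1 FPKM, so the log2 fold change of -4.35 (SE 0.44, adjusted p = 0.000274, limma) is smaller in size than the one on unfloored values. The 3 ILC2PBS libraries stood in the same order for Ltbr, Tnfrsf1a and Fas, with nA lowest and 2 highest.

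Tnfrsf4 encodes OX40, a costimulatory receptor of activated T cells. It had 3.90 and 7.53 FPKM in ILC2IL-33 libraries Expand and WT, against 1.84, 1.63 and 1.59 FPKM in ILC2PBS libraries nA, 1 and 2. Low in all 5 libraries, it was still separate between the groups, with a log2 fold change of 1.69 (SE 0.33, adjusted p = 0.00618, limma). Cd27, the receptor of CD70, had 53.7 and 47.7 FPKM in ILC2IL-33, against 16.0, 24.6 and 16.2 FPKM in ILC2PBS. The groups did not overlap, and Cd27 was 1.45 higher on the log2 scale (SE 0.23, adjusted p = 0.00252, limma), a call that was lost without the library Expand or WT (adjusted p = 0.0852 and 0.0749, limma).

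The other 4 receptors were not called. Tnfrsf1b, which encodes TNFR2, had 39.8 and 40.4 FPKM in ILC2IL-33 and 28.6, 20.1 and 15.8 FPKM in ILC2PBS libraries nA, 1 and 2. Its log2 difference of 0.94 passed the adjusted p (0.0261, limma) but lay under the fold of 2, and it was called without ILC2PBS library nA (1.17). Tnfrsf25, which encodes DR3, the receptor of TL1A, had 56.3 and 61.4 FPKM in ILC2IL-33 and 37.5, 33.9 and 35.6 FPKM in ILC2PBS, a log2 difference of 0.72 (adjusted p = 0.00983, limma) under the fold of 2. Tnfrsf18, which encodes GITR, had 103 and 153 FPKM in ILC2IL-33 and 193, 267 and 217 FPKM in ILC2PBS (log2 difference -0.83, adjusted p = 0.0334, limma), again under the fold of 2. Tnfrsf9, which encodes 4-1BB, was the one receptor whose groups overlapped, with 4.38 and 6.88 FPKM in ILC2IL-33 and 8.57, 8.54 and 5.60 FPKM in ILC2PBS, and its log2 difference of -0.44 had a 95% interval of -1.17 to 0.30.

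Among all 12565 genes tested, 8.22% were called higher and 18% lower (26.3% in either direction), and 62.4% had groups that did not overlap, against 2, 3 and 8 of the 9 receptors. A per-gene equal-variance test on FPKM called 444 genes and none of the receptors, with adjusted p between 0.0651 and 0.202 for the 5 that limma called. By this test 4 of the 9 receptors had an unadjusted p under 0.05, as did 4134 of the 12565 genes. Without ILC2PBS libraries 1 and 2, which leaves the single library nA in that group and takes the spread from the ILC2IL-33 libraries, limma called Tnfrsf1a and Ltbr and did not call Fas (log2 difference -0.92), Tnfrsf4 (1.56) or Cd27 (1.67). The ILC2PBS libraries also held transcripts of other lung cells, which the sort was set to leave out by taking CD45+ Thy-1.2+ ST2+ cells without lineage markers such as CD11b and CD11c. All 6 alveolar type 2 epithelial markers were called lower in ILC2IL-33, with summed levels of 86.1 and 154 FPKM against 4424, 9385 and 13127 FPKM in ILC2PBS libraries nA, 1 and 2. The macrophage and dendritic cell list summed to 31.7 and 34.2 FPKM in ILC2IL-33 and to 1743 to 3554 FPKM in ILC2PBS, with 8 of the 8 tested genes called lower. All 7 endothelial markers (44.8 and 61.4 FPKM in ILC2IL-33, 751 to 1485 FPKM in ILC2PBS), all 7 fibroblast and mesenchymal markers (5.12 and 13.5 FPKM against 199.6 to 258 FPKM) and all 5 alveolar type 1 markers (20.8 and 33.8 FPKM against 616 to 1123 FPKM) were called lower, and none of these markers was at 0 in every ILC2PBS library. These lists ran the same way as Tnfrsf1a, Ltbr and Fas, and their part in the result was not tested. In such pools of cells, fewer cells with a transcript and less of it per cell cannot be told apart.

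ILC210 differed from ILC2act in Tnfrsf1a, Ltbr and Tnfrsf4. The first 2 were higher and the last was lower in ILC210, the reverse of their signs after IL-33. Tnfrsf1a had 18.3, 17.8 and 28.3 FPKM in ILC210 libraries 2, 4 and 8, against 3.12, 3.22 and 3.08 FPKM in ILC2act libraries 1, 3 and 7. The ILC2act libraries were tightly grouped and lay far under each ILC210 library, and the log2 fold change was 2.74 (SE 0.19, adjusted p = 3.01e-05, limma). Ltbr had 8.36, 8.54 and 12.8 FPKM in ILC210, against 1.20, 0.574 and 1.46 FPKM in ILC2act. Library 8 was the highest for both genes, and Ltbr was 3.01 higher on the log2 scale (SE 0.24, adjusted p = 5.17e-05, limma).

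Tnfrsf4 had 3.55, 5.14 and 5.94 FPKM in ILC210, against 11.0, 16.6 and 14.1 FPKM in ILC2act libraries 1, 3 and 7. It was lower in each ILC210 library than in any ILC2act library, with a log2 fold change of -1.52 (SE 0.23, adjusted p = 0.00181, limma). Fas had 18.9, 30.3 and 23.7 FPKM in ILC210 libraries 2, 4 and 8 and 10.3, 12.8 and 13.8 FPKM in ILC2act. Its log2 difference of 0.97 (SE 0.19, adjusted p = 0.00781, limma) fell just short of the fold of 2, and it was called without library 2 (1.14), 3 (1.00) or 7 (1.06).

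Of the remaining 5 receptors, Tnfrsf25 came nearest to a call. It had 52.5, 69.9 and 45.3 FPKM in ILC210 and 92.9, 112 and 87.6 FPKM in ILC2act, with no overlap and a log2 difference of -0.82 (adjusted p = 0.00932, limma) under the fold of 2. Tnfrsf9 had 10.3, 8.19 and 11.5 FPKM in ILC210 and 8.03, 6.15 and 5.54 FPKM in ILC2act, separate but with an adjusted p of 0.0667 (limma). Tnfrsf1b was separate by a narrow margin, at 110, 104 and 108 FPKM in ILC210 and 94.9, 86.2 and 88.8 FPKM in ILC2act (log2 difference 0.25, 95% interval 0.07 to 0.44, adjusted p = 0.0761, limma). Tnfrsf18 and Cd27 overlapped between the groups. Tnfrsf18 had 135, 184 and 130 FPKM in ILC210 and 189, 208 and 164 FPKM in ILC2act (log2 difference -0.33, 95% interval -0.67 to 0.01). Cd27 had 39.4, 50.3 and 29.8 FPKM in ILC210 and 32.2, 33.4 and 23.1 FPKM in ILC2act (0.42, -0.05 to 0.89). Within each consecutive pair of libraries, Tnfrsf18 was lower and Cd27 higher in ILC210. With these pairs as a replicate block, adjusted p was 0.0156 for Tnfrsf18, 0.00909 for Cd27, 0.0280 for Tnfrsf9 and 0.0243 for Tnfrsf1b (limma). These receptors stayed under the fold of 2, and 1269 genes were called in place of 1190. A block by a tag in the titles gave 0.0573, 0.131, 0.0550 and 0.0680 (limma).

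Among all 11564 genes tested in ILC210 and ILC2act, 9.24% were called higher and 1.05% lower (10.3% in either direction), and 32.6% did not overlap, against 2, 1 and 7 of the 9 receptors. The per-gene equal-variance test called 22 genes and none of the receptors, with adjusted p between 0.0982 and 0.111 for the 3 that limma called. By this test 7 of the 9 receptors had an unadjusted p under 0.05, as did 2523 of the 11564 genes. Markers of other lung cells differed here as well. The 6 alveolar type 2 markers, all called higher in ILC210, summed to 5267, 6411 and 8558 FPKM in ILC210 libraries 2, 4 and 8, against 399.9, 405 and 503 FPKM in ILC2act. Sums were 617 to 1425 FPKM in ILC210 and 49.4 to 79.4 FPKM in ILC2act for macrophages and dendritic cells (7 of 7 tested genes higher), 308 to 440.1 and 51.5 to 53.5 FPKM for endothelium (7 of 7), 57.4 to 141 and 8.27 to 11.6 FPKM for fibroblasts and mesenchyme (7 of 7), and 325 to 657 and 37.4 to 52.8 FPKM for alveolar type 1 epithelium (4 of 5). None of these markers was at 0 in every ILC210 library. Between the groups these sums moved with Tnfrsf1a, Ltbr and Fas. Among ILC210 libraries, library 8 had the highest alveolar type 2 sum, Tnfrsf1a and Ltbr, while Fas was highest in library 4. The part of these other cells in the result was not tested. The plot of 3 receptors against alveolar type 2 markers gives both values for each library.

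**Figure D2:**
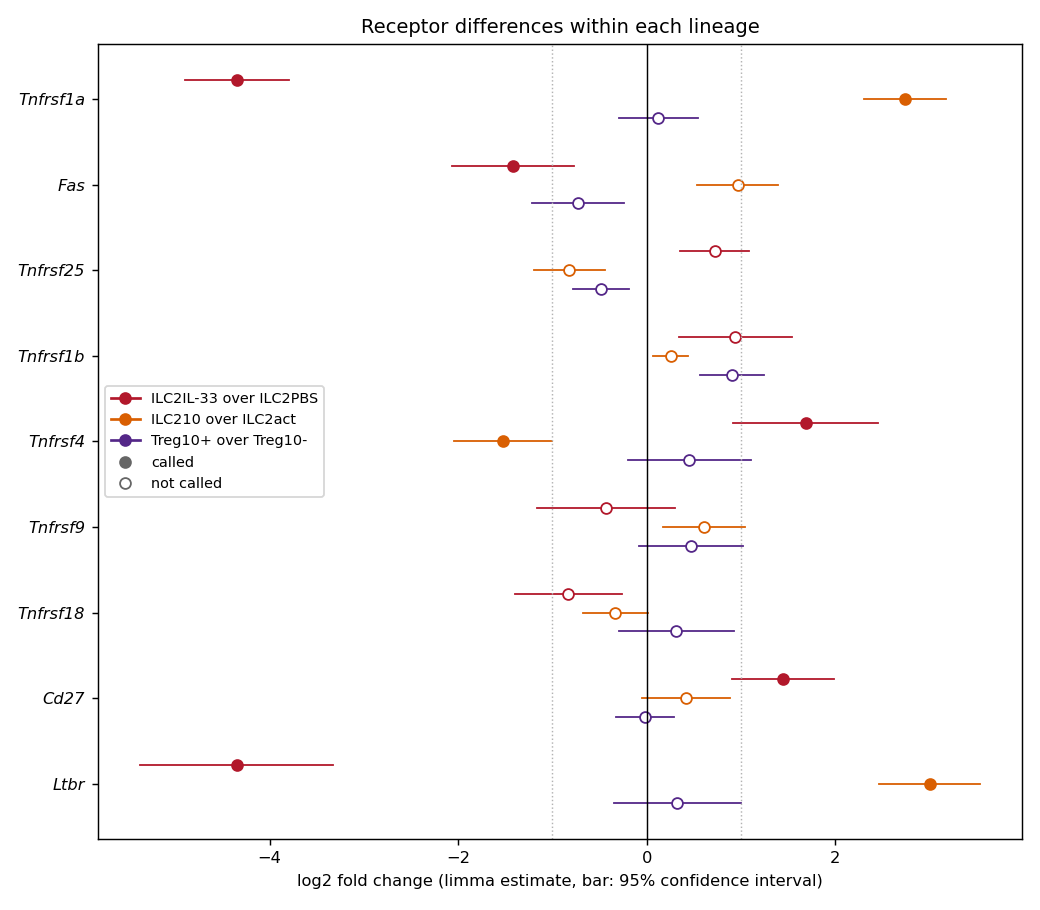
Log2 fold change (x) of each receptor (y) in ILC2IL-33 over ILC2PBS, ILC210 over ILC2act and Treg10+ over Treg10-, with bars for the 95% confidence interval. Filled points were called, open points were not, and dotted lines mark a fold of 2. Tnfrsf1a, Ltbr and Tnfrsf4 were called in both ILC2 comparisons with opposite signs, and no receptor was called in Treg cells.

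**Figure D3:**
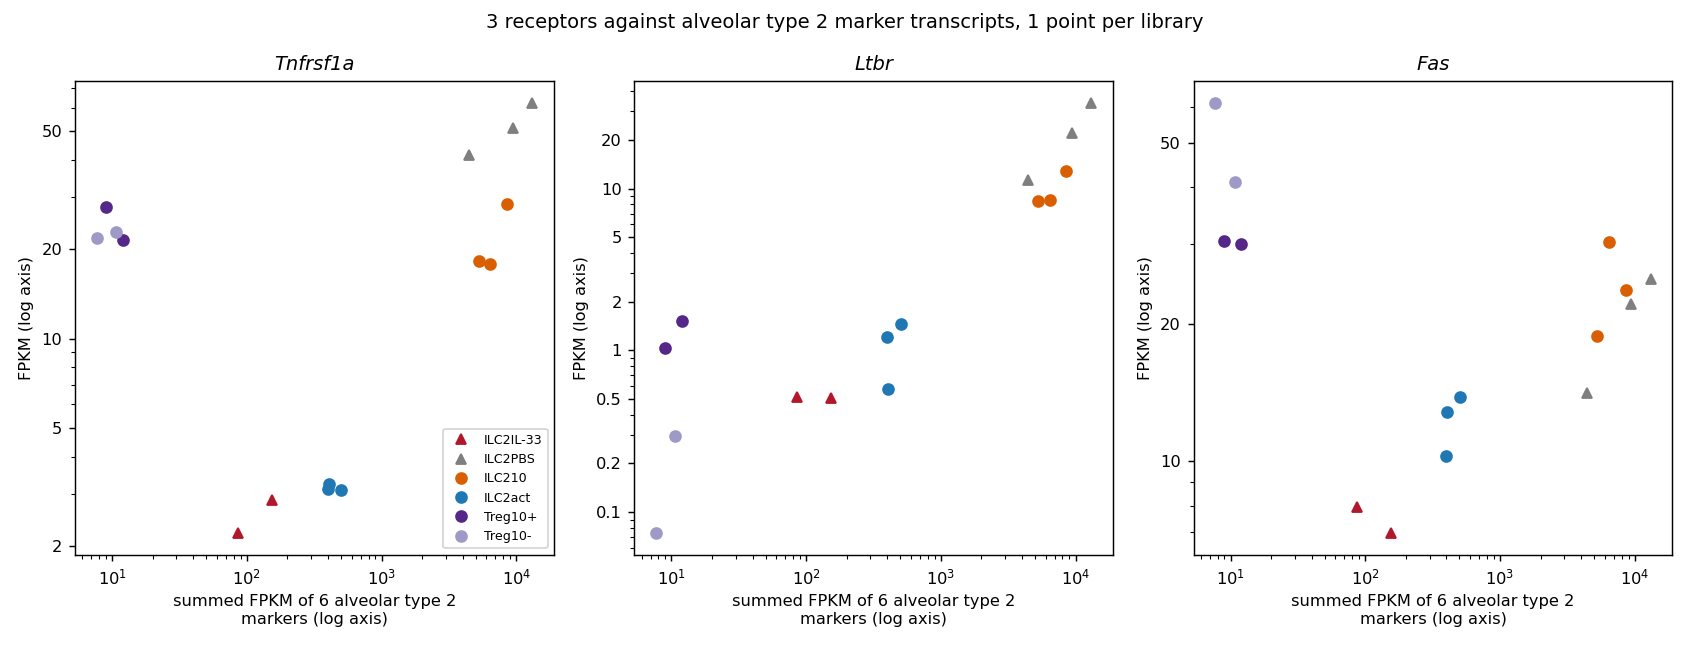
FPKM of Tnfrsf1a, Ltbr and Fas (y, log axis) against the summed FPKM of 6 alveolar type 2 epithelial markers (x, log axis), with a point per library, triangles for the table of IL-33 and PBS and circles for the reporter table. Among ILC2 libraries those of ILC2PBS and ILC210 lie high on both axes, and Treg libraries hold 21.4 to 27.7 FPKM of Tnfrsf1a at marker sums of 7.70 to 12.0 FPKM.

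In Treg cells no receptor was called between Treg10+ and Treg10- (0 of 9 by limma), where 1.37% of 10837 genes were called, 0.904% higher and 0.461% lower. The per-gene equal-variance test called none of the 10837 genes. An unadjusted p under 0.05 in limma, which 14.1% of all genes had, was found for 3 of the 9, Tnfrsf1b, Fas and Tnfrsf25. Tnfrsf1b had 274 and 269 FPKM in Treg10+ libraries 6 and 10, against 134 and 157 FPKM in Treg10- libraries 5 and 9. Both Treg10+ libraries were above both Treg10- libraries, and the log2 difference of 0.91 passed the adjusted p (0.0430, limma) but not the fold of 2. Fas had 30.4 and 30.0 FPKM in Treg10+ and 61.2 and 41.0 FPKM in Treg10- (log2 difference -0.73, adjusted p = 0.176, limma), and Tnfrsf25 had 43.6 and 41.1 FPKM in Treg10+ and 57.9 and 60.1 FPKM in Treg10- (-0.48, adjusted p = 0.149, limma).

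The groups did not overlap for 4 receptors, these 3 and Ltbr, against 43% of all genes tested. Ltbr had 1.04 and 1.52 FPKM in Treg10+ and 0.0743 and 0.297 FPKM in Treg10-, under the floor in both Treg10- libraries. Cd27 was almost level in all 4 Treg libraries, with 166 and 177 FPKM in Treg10+ and 175 and 171 FPKM in Treg10- (log2 difference -0.01, 95% interval -0.32 to 0.29). Tnfrsf1a also overlapped, with 27.7 and 21.4 FPKM in Treg10+ and 21.7 and 22.9 FPKM in Treg10- (0.12, -0.29 to 0.54). Tnfrsf4 had 1041 and 754 FPKM in Treg10+ and 785 and 533 FPKM in Treg10-, Tnfrsf18 738 and 512 FPKM in Treg10+ and 579 and 422 FPKM in Treg10-, and Tnfrsf9 211 and 156 FPKM in Treg10+ and 159 and 108 FPKM in Treg10-. For these 3 costimulatory receptors the lower-numbered library of each group was the higher one, and their log2 differences of 0.45, 0.32 and 0.47 had intervals that included 0 in the fit without pairs. Within each consecutive pair of libraries, 6 with 5 and 10 with 9, the Treg10+ library was the higher one for all 3 genes. With these pairs as a replicate block, 434 genes were called in place of 148. Adjusted p was then 0.000166 for Tnfrsf4, 0.00328 for Tnfrsf18 and 0.000608 for Tnfrsf9 (limma). It was 3.29e-06 for Tnfrsf1b, 0.00128 for Fas and 0.00345 for Tnfrsf25, and stayed above 0.05 for Tnfrsf1a, Cd27 and Ltbr (limma). All 9 receptors lay under the fold of 2. The block leaves fewer residual degrees of freedom than the 2 of the fit without pairs. These p-values therefore rest largely on the spread shared across genes. The macrophage and dendritic cell markers summed to 238 and 280 FPKM in Treg10+ and to 26.2 and 68.5 FPKM in Treg10-, with 4 of 8 tested genes called higher, and their part in the differences was not tested.

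The difference between ILC210 and ILC2act was then set against that between Treg10+ and Treg10- in a fit of the 10 libraries. The contrast was higher for Tnfrsf1a (2.61 on the log2 scale, SE 0.29, adjusted p = 0.000429, limma), for Ltbr (2.68, SE 0.37, adjusted p = 0.00132) and for Fas (1.70, SE 0.32, adjusted p = 0.00725), and lower for Tnfrsf4 (-1.98, SE 0.37, adjusted p = 0.00725). Of all genes, 6.53% were called higher and 1.56% lower (8.1% in either direction), against 3 and 1 of the 9 receptors. For Fas the signs differed, with 18.9 to 30.3 FPKM in ILC210 over 10.3 to 13.8 FPKM in ILC2act and 30.0 and 30.4 FPKM in Treg10+ under 41.0 and 61.2 FPKM in Treg10-. Tnfrsf1b was at -0.65 (adjusted p = 0.0115, limma), under the fold of 2, which makes 5 of the 9 receptors at an adjusted p under 0.05, against 9.37% of all genes. The Fas call was lost without Treg library 5 or 6 (adjusted p = 0.0508 and 0.0509, limma) and that of Tnfrsf4 without library 6 or 9 (0.0654 and 0.0580). Without the filter on low values both were lost (0.0601 for Fas and 0.0681 for Tnfrsf4). The Ltbr contrast fell to 0.78 (adjusted p = 0.599, limma) on log2(FPKM + 0.1) without a floor, a scale on which values under 1 FPKM count in full.

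Between the lineages, the costimulatory receptors Tnfrsf4, Tnfrsf9, Tnfrsf18 and Cd27 were lower in ILC2 than in Treg cells in both reporter fractions. Tnfrsf4 showed the widest gap, at 3.55 to 5.94 FPKM in ILC210 against 754 and 1041 FPKM in Treg10+ (log2 fold change -7.54, SE 0.26, adjusted p = 2.42e-08, limma). It had 11.0 to 16.6 FPKM in ILC2act against 533 and 785 FPKM in Treg10- (-5.56, SE 0.26, adjusted p = 2.25e-07, limma). The log2 fold change of Tnfrsf9 was -4.19 in ILC210 over Treg10+ and -4.33 in ILC2act over Treg10-, with 8.19 to 11.5 FPKM and 5.54 to 8.03 FPKM in these ILC2 against 156 and 211 FPKM in Treg10+ and 108 and 159 FPKM in Treg10-. In the same 2 comparisons the log2 fold changes were -2.14 and -2.57 for Cd27 and -2.05 and -1.41 for Tnfrsf18, and the highest adjusted p of these 8 tests was 0.000582 (limma).

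Of the death domain receptors, Tnfrsf1a and Fas were called lower in ILC2act than in Treg10- and were not called in ILC210 over Treg10+. Tnfrsf1a had 17.8 to 28.3 FPKM in ILC210 and 21.4 and 27.7 FPKM in Treg10+, which overlapped (log2 difference -0.22, 95% interval -0.67 to 0.24). In ILC2act it had 3.08 to 3.22 FPKM, against 21.7 and 22.9 FPKM in Treg10- (-2.83, adjusted p = 3.62e-06, limma). For Fas the log2 difference was -0.34 in ILC210 over Treg10+ (95% interval -0.84 to 0.16) and a call of -2.04 in ILC2act over Treg10- (adjusted p = 6.60e-05, limma). Tnfrsf25 was not called in either, at 45.3 to 69.9 FPKM in ILC210 and 41.1 and 43.6 FPKM in Treg10+ (0.38, adjusted p = 0.112, limma) and at 87.6 to 112 FPKM in ILC2act and 57.9 and 60.1 FPKM in Treg10- (0.72, adjusted p = 0.00851, limma, under the fold of 2).

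Tnfrsf1b was called lower in ILC210 than in Treg10+ (-1.34, SE 0.09, adjusted p = 2.42e-06, limma) and lay under the fold of 2 in ILC2act over Treg10- (-0.69, adjusted p = 0.000293, limma). Ltbr was the one receptor called higher in ILC2, at 8.36 to 12.8 FPKM in ILC210 against 1.04 and 1.52 FPKM in Treg10+ (2.95, SE 0.26, adjusted p = 1.23e-05, limma). In ILC2act over Treg10- it was not called on the floored scale (0.27) but was called on log2(FPKM + 0.1) (2.08, adjusted p = 0.00312, limma). Of 12475 genes tested, 12.5% were called higher and 7.25% lower in ILC210 over Treg10+ (19.7% in either direction), against 1 and 5 receptors, and 60% did not overlap, against 7 receptors. In ILC2act over Treg10-, 7.89% were called higher and 8.53% lower (16.4% in either direction), against 0 and 6 receptors, and 61.9% did not overlap, against all 9 receptors. The median of the 9 log2 differences was -1.34 and -2.04 in these comparisons, against 0.00 and -0.0003 over all genes. The alveolar type 2 markers summed to 7.70 to 12.0 FPKM in the 4 Treg libraries, against 5267 to 8558 FPKM in ILC210, and 4 matched T cell markers to 1018 to 1241 FPKM in Treg libraries, against 2.17 to 8.14 FPKM in ILC210 and ILC2act libraries. ILC2 came from lung and Treg cells from spleen, so lineage and organ cannot be told apart.

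**Figure D4:**
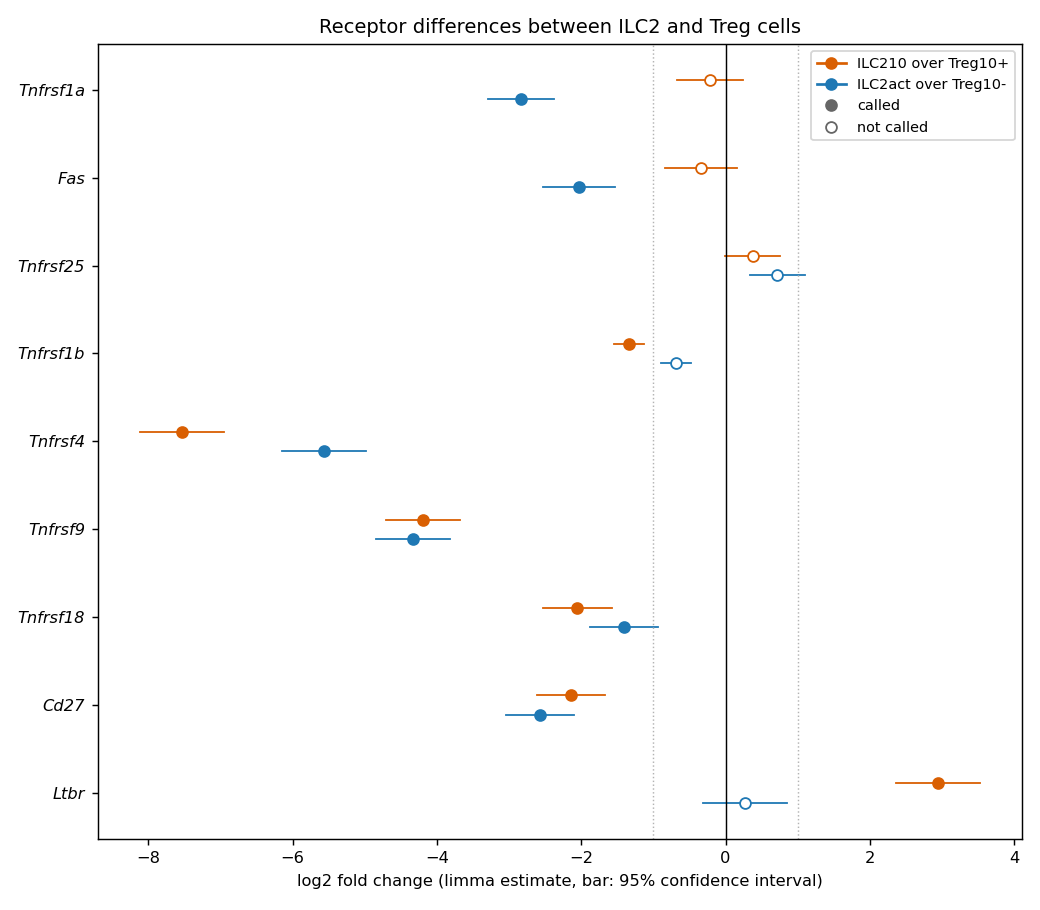
Log2 fold change (x) of each receptor (y) in ILC210 over Treg10+ and in ILC2act over Treg10-, with bars for the 95% confidence interval, filled points for receptors that were called and dotted lines at a fold of 2. Tnfrsf4 and Tnfrsf9 lie farthest to the left in both, and Ltbr in ILC210 lies alone on the right among called points.

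Summed over the 9 receptors, ILC210 libraries held 396 to 479 FPKM, ILC2act libraries 402 to 479 FPKM, Treg10+ libraries 1962 and 2533 FPKM and Treg10- libraries 1516 and 1973 FPKM. Tnfrsf4 and Tnfrsf18 together made up most of the sum in Treg cells, with Tnfrsf4 at 38.4% and 41.1% in Treg10+ and 35.2% and 39.8% in Treg10-, against 0.896% to 1.50% in ILC210 and 2.49% to 3.50% in ILC2act. The 2 neighbouring genes stood at a ratio of Tnfrsf4 to Tnfrsf18 of 1.41 and 1.47 in Treg10+ and 1.26 and 1.35 in Treg10-, against 0.0262 to 0.0456 in ILC210 and 0.0582 to 0.0855 in ILC2act. Within ILC2, Tnfrsf25 took 11.4% to 14.6% of the sum in ILC210 and 21.0% to 23.4% in ILC2act. The ratio of the 2 TNF receptors, Tnfrsf1a to Tnfrsf1b, was 0.167 to 0.263 in ILC210, 0.0328 to 0.0374 in ILC2act, 0.0797 and 0.101 in Treg10+ and 0.146 and 0.163 in Treg10-. In the other table it was 0.0548 and 0.0718 in ILC2IL-33 and 1.46 to 3.95 in ILC2PBS, so Tnfrsf1a outnumbered Tnfrsf1b per length in ILC2PBS libraries alone.

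**Figure D5:**
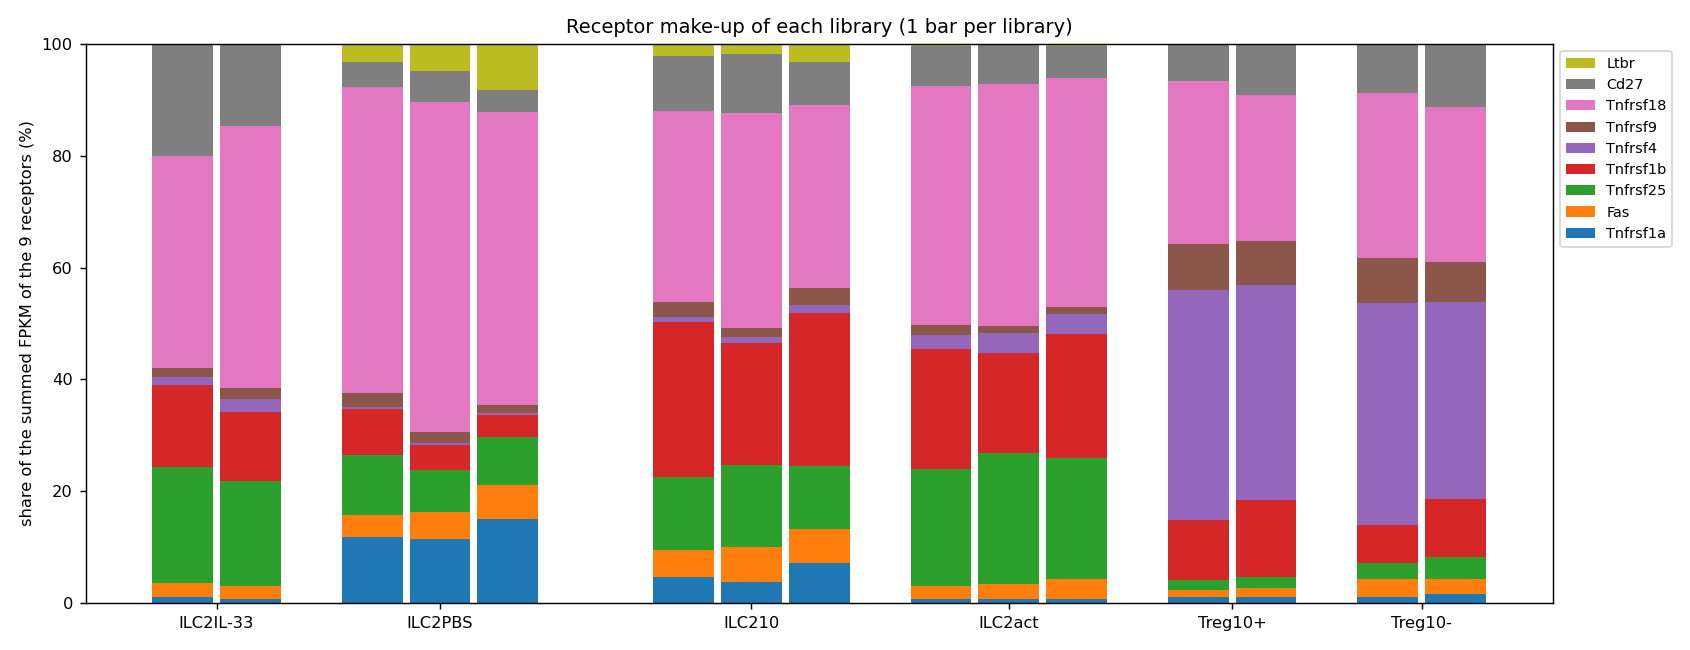
Share of each receptor (y, percent) in the summed FPKM of the 9 receptors, with a bar per library in the 6 groups (x). Tnfrsf4 takes 35.2% to 41.1% in Treg libraries and at most 3.50% in ILC2 libraries, and Tnfrsf1a takes 11.4% to 15.1% in ILC2PBS.

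The genes whose pattern over the 10 reporter libraries was most like that of a receptor were ranked by Pearson's r among 8360 genes, as a description over 4 groups that mostly follows the difference between groups. Those of Tnfrsf1a were Il6st (0.986), Stom (0.984) and Cd24a (0.982), and those of Ltbr were Lamp3 (0.992), an alveolar type 2 marker of the list above, Tspan9 (0.991) and Kdr (0.990), an endothelial marker of that list. Those of Tnfrsf4 were Cd247 (0.996) and Cd3e (0.996), both encoding chains of the T cell receptor complex, and BC017643 (0.994). Those of Tnfrsf18 were Leprotl1 (0.985), Isg20 (0.983) and Traf2 (0.980), the last an adaptor of these receptors. Tnfrsf9 was followed by Pglyrp1 (0.995), Nrn1 (0.993) and Igtp (0.993), Tnfrsf1b by Adap1 (0.994), Ctsb (0.994) and N4bp1 (0.983), and Cd27 by Peli1 (0.989), Tgtp2 (0.988) and A630001G21Rik (0.988). The highest values were lower for Fas, with Atg4b (0.963), Ubl4 (0.961) and 4833420G17Rik (0.959), and for Tnfrsf25, with Abhd8 (0.952) and Ramp1 (0.946).

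Ligands of the 9 receptors were lower in ILC210 than in ILC2act for 5 of the 7 genes tested, and none was higher (1.05% and 9.24% of all genes). Tnf, the ligand of both TNF receptors, averaged 1.62 ± 1.35 FPKM in ILC210 and 38.8 ± 15.2 FPKM in ILC2act (SD, n = 3 each) and was lower, with a log2 fold change of -4.58 (adjusted p = 0.000172, limma). Tnfsf4, which encodes OX40 ligand, averaged 0.861 ± 0.482 FPKM in ILC210 and 9.09 ± 1.64 FPKM in ILC2act (SD, n = 3 each; -3.05, adjusted p = 2.75e-05, limma). Tnfsf4 and its receptor Tnfrsf4 were both called lower in ILC210. The lymphotoxin genes Lta (-2.78) and Ltb (-1.86) and the CD27 ligand Cd70 were the other 3 called, with Ltb at 80.0 to 258 FPKM in ILC210 and 364 to 848 FPKM in ILC2act. The 2 ligands tested and not called were Tnfsf9 (-0.77, adjusted p = 0.0675, limma) and Tnfsf14 (-0.70, adjusted p = 0.0479, limma, under the fold of 2). The median over the 7 was -1.86, against 0.03 over all genes.

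After IL-33, 3 of 7 ligands tested were higher and 2 lower (8.22% and 18% of all genes). Tnfsf4 had 20.6 and 21.0 FPKM in ILC2IL-33 against 1.25 to 1.71 FPKM in ILC2PBS (3.88, adjusted p = 6.56e-05, limma), again with the sign of its receptor. Cd70 (1.46) and Tnfsf9 (1.17) were higher, and Tnf (-1.28) and Lta (-1.26) were lower. Ltb averaged 258 ± 76.0 FPKM in ILC2IL-33 (n = 2) and 366 ± 70.9 FPKM in ILC2PBS (n = 3), and was not called, nor was Tnfsf14 (-0.22). Tnfsf18 and Tnfsf15, the ligands of GITR and DR3, averaged under 1 FPKM in all 6 groups and were not tested. In Treg cells 0 of 6 ligands were called (1.37% of all genes), and 4 had an unadjusted p under 0.05 (14.1% of all genes, limma). Between lineages, Tnfsf9 and Tnfsf14 were higher in ILC2 in both fractions, by 2.71 and 3.80 in ILC210 over Treg10+ and by 3.71 and 3.68 in ILC2act over Treg10-, while Tnfrsf9, the receptor of the Tnfsf9 product, was lower in ILC2. Tnfsf4 (3.17) and Tnf (2.36) were among 5 of 8 ligands called higher in ILC2act over Treg10- (7.89% of all genes), and Ltb (-1.78) and Fasl (-1.74) among 3 of 8 called lower in ILC210 over Treg10+ (7.25%).

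Of 19 other receptors of the superfamily, 14 could be tested after IL-33, and 1 was higher and 5 were lower, where 8.22% and 18% of all genes were. Tnfrsf8, which encodes CD30, had 23.5 and 34.9 FPKM in ILC2IL-33 and at most 0.264 FPKM in ILC2PBS (4.84, adjusted p = 4.49e-05, limma), and Cd40 (-2.91), Tnfrsf19 (-2.16) and Tnfrsf12a (-2.01) were the largest of the lower ones. Tnfrsf14 (0.17) and Tnfrsf10b (-0.05) were not called. Markers of other lung cells were lower in ILC2IL-33 as well, as given above, and their part in these differences was not tested. In ILC210 over ILC2act 2 of 13 were called, a share near the 10.3% of all genes, Cd40 (1.87) and Tnfrsf13c (1.68), both higher. Both are known from B cells, whose 6 markers summed to 125 to 202 FPKM in ILC210 and 49.0 to 77.8 FPKM in ILC2act. Of 5 B cell markers tested 2 were called higher, and the part of other cells in these differences was not tested. Tnfrsf11a, which encodes RANK, was higher in ILC2 than in Treg cells in both fractions (3.38 and 4.27), and Tnfrsf13b, which encodes TACI, was lower in both (-4.03 and -3.47). TACI is known mainly from B cells, and the same 6 B cell markers summed to 286 and 359 FPKM in Treg10+ and to 145 and 245 FPKM in Treg10- libraries, above the ILC2act range, and their part in the Tnfrsf13b difference was not tested.

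Of 20 adaptors and death signalling genes, 3 were called higher and 1 lower after IL-33 (8.22% and 18% of all genes). In either direction this is near the 26.3% called among all genes. Ripk3, a kinase of necroptosis (2.07), Tradd, the adaptor of death domains (1.23), and Traf1 (1.06) were higher and Traf5 was lower (-1.28) in ILC2IL-33. Traf5, an adaptor of OX40, CD27 and GITR among others, was the one gene of the 20 called in ILC210 over ILC2act (10.3% of all genes). It had 5.07 to 7.52 FPKM in ILC210 against 1.44 to 2.60 FPKM in ILC2act (1.49, adjusted p = 0.00576, limma). It was lower in ILC2 than in Treg cells in both fractions (-2.09 and -3.90). In ILC2IL-33 over ILC2PBS and in ILC210 over ILC2act Traf5 had the sign of the other lung cell markers above, whose part was not tested. Tnfaip3, which encodes the NF-kB inhibitor A20, averaged 651 ± 116 FPKM in ILC210 and 781 ± 81.6 FPKM in ILC2act (n = 3 each), against 21.2 ± 1.82 FPKM in Treg10+ and 20.1 ± 2.89 FPKM in Treg10- (n = 2 each). This made it the largest of the called differences in its list between lineages (4.92 in ILC210 over Treg10+ and 5.28 in ILC2act over Treg10-).

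Of 16 genes of NF-kB and its kinases, limma called 0 after IL-33, 0 in ILC210 over ILC2act and 0 in Treg10+ over Treg10-. Of all genes 26.3%, 10.3% and 1.37% were called in these comparisons. An unadjusted p under 0.05 (limma) was found for 4, 5 and 1 of the 16, against 44.7%, 27.1% and 14.1% of all genes. Nfkbia, the most abundant of the 16, differed by 0.12 after IL-33 and 0.11 in ILC210 over ILC2act. Between lineages 3 of 16 were higher in ILC2 in each comparison. Of all genes 12.5% were higher in ILC210 over Treg10+ and 7.89% in ILC2act over Treg10-. Nfkb1 (2.04 and 2.46) and Nfkbia (1.99 and 2.08) were called in both ILC210 over Treg10+ and ILC2act over Treg10-, Rel (1.01) in the first and Nfkb2 (1.02) in the second, and Rela (0.08 and 0.13) in neither.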

How the data were processed

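RNA of sorted cells was converted to cDNA from 10 ng by template switching. ILC2IL-33 and ILC2PBS libraries were read on an Ion Proton (about 200 bp) and the others on a NextSeq 500 (75 bp). The authors aligned reads to GRCm38 with TopHat2 2.1.0 and deposited FPKM per gene from Cufflinks 2.2.1. In the reporter data, 312 genes held a text mark for low data in place of a value and were left out, as were 5 genes with a missing value. The depth of each library and its counts of reads are unknown, since the labels give averages only. The source field of the Treg samples names lung ILC2, and their titles, which give Treg10+ or Treg10-, were used.

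FPKM floored at 1 were put on the log2 scale and tested with limma 3.58.1 (trend) in R 4.3.3, each table by itself, over genes above 1 FPKM in at least 2 libraries (3 for ILC210 and ILC2act). Adjusted p-values cover all genes tested. The step was tested on simulated data. The members and lists were chosen with earlier results of these data known. In each other list of the pathway up to 4 called genes of largest change and 2 of highest mean among the rest were named, and for each receptor the 3 genes of highest correlation among genes averaging 5 FPKM or more, of which 1 is not reported here. Python 3.11.15 was used for sums and figures.

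The titles of the reporter ILC2 carry a tag that each consecutive pair of libraries (Thy-1.1- and Thy-1.1+) shares, 1 tag for libraries 1, 2, 7 and 8 and another for 3 and 4, and do not say what it marks. Deviations from the group means correlated at 0.345, 0.299 and 0.187 within the 3 consecutive ILC2 pairs (-0.265 to 0.0191 in the others). In Treg cells they correlated at 0.385 within consecutive pairs and at -0.385 in the others. With 2 libraries per Treg group these values are equal in size by construction, and only the sign is informative. The Treg titles share their wording within each consecutive pair. Consecutive pairs were run as a replicate block. A block by the tag left 1190 genes and the same number of receptors called in ILC210 over ILC2act. Other alternatives were other pseudocounts, no filter, a mean of at least 5 FPKM, quantile normalization, equal medians, a per-gene equal-variance test, each library left out and a fit of all 10 libraries.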

Additional observations from a re-analysis of the deposited data

Results flagged for a closer look

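For 5 receptors the difference between the reporter fractions was not the same in ILC2 and in Treg cells by the test of the difference itself, ILC210 over ILC2act minus Treg10+ over Treg10- on the log2 scale in limma (adjusted p under 0.05 at any fold, which 9.37% of all genes passed). The value was 2.61 for Tnfrsf1a, 2.68 for Ltbr and 1.70 for Fas, and -1.98 for Tnfrsf4 and -0.65 for Tnfrsf1b, the last under the fold of 2. Of the receptors called at the fold of 2, 3 depend on the processing. For Tnfrsf1b, which was not called, only sign and call were compared, so a loss of its adjusted p would not show. On log2(FPKM + 0.1) without a floor the Ltbr value was 0.78 (adjusted p = 0.599), with both Treg10- libraries under the floor of 1 FPKM used otherwise. Fas and Tnfrsf4 missed the threshold without the filter on low values (adjusted p = 0.0601 and 0.0681), Fas also without Treg library 5 or 6 and Tnfrsf4 without library 6 or 9. Some markers of other cells were also called higher in this contrast. These were 5 of 6 alveolar type 2, 4 of 5 alveolar type 1, 7 of 7 endothelial and 7 of 7 fibroblast and mesenchymal genes. Of the macrophage and dendritic cell list only 1 of 8 tested genes was called higher (median -0.42), and of the B cell list 1 of 5. The part of such cells in the values of Tnfrsf1a, Ltbr and Fas was not tested. With groups of 2 or 3 libraries, no single library could be examined as an outlier.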

How the results depend on the processing

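Of 832 values of single receptors under an alternative, 794 kept their direction and stayed called or not called, 25 lost a call, 6 gained one and 7 changed sign. The changes of sign were all of values near 0 that were not called: in Treg10+ over Treg10-, Cd27 (-0.0609 to 0.0310 without 1 library) and Tnfrsf1a (-0.0591 to 0.309), and in the contrast of the 2 lineages Tnfrsf9 with quantile normalization (-0.0303), equal medians (-0.00464) and without 1 library (-0.135 to 0.415).

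After IL-33, 1 receptor in place of 2 was called higher without a filter (Tnfrsf4 had an adjusted p of 0.0866) or at a mean of at least 5 FPKM, which removes Tnfrsf4, and 0 without ILC2PBS libraries 1 and 2. Without a filter 2 in place of 3 were called lower, Fas having an adjusted p of 0.0686. All genes called were 3300, against 2170 without a filter, 1913 at the mean of 5 FPKM and 1469 without ILC2PBS libraries 1 and 2, and leaving out 1 library gave 1 to 3 receptors higher and 1815 to 3513 genes. In ILC210 over ILC2act, no receptor was called lower without a filter, where Tnfrsf4 had an adjusted p of 0.0574, and 685 genes were called in place of 1190 (540 at the mean of 5 FPKM). The per-gene equal-variance test called 0 receptors in either direction in both comparisons, and 444 and 22 genes.

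In Treg cells the 148 genes called were 231 with log2(FPKM + 1), 67 without a filter, 232 in the fit of all 10 libraries and 0 with the equal-variance test or without any 1 library. The replicate block gave 434. Over all comparisons run with a block, none of 54 receptor values changed sign or call. In Treg cells Tnfrsf4, Tnfrsf9, Tnfrsf18, Tnfrsf25 and Fas passed the adjusted p with the block but stayed under the fold of 2. In ILC2act over Treg10-, 1 receptor (Ltbr) in place of 0 was called higher with log2(FPKM + 0.1), and 1332 genes in place of 2048 at the mean of 5 FPKM. In ILC210 over Treg10+, 0 receptors in place of 1 were called higher at the mean of 5 FPKM, which removes Ltbr, and 1249 genes in place of 2461. In the contrast of the 2 lineages, 0 receptors in place of 1 were called lower without a filter, 0 to 1 without 1 library, and 621 genes without a filter and 449 at the mean of 5 FPKM in place of 1010. Where no reason is given, the cause was not tested.

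Quantile normalization and equal medians moved the median of all genes after IL-33 from -0.06 to 0.14 and 0.12 and in ILC210 over ILC2act from 0.03 to -0.12 and -0.11. The share of called genes that were higher moved with them, to 49.3% and 42.2% from 31.3% after IL-33, to 73.3% and 85.0% from 89.8% in ILC210 over ILC2act, to 49.9% and 59.8% from 63.3% in ILC210 over Treg10+ and to 67% and 72.6% from 80.7% in the contrast of the lineages. Equal medians added Tnfrsf1b to the receptors called higher after IL-33 (1.12). With no read counts, the precision of values near 1 FPKM, those of Ltbr and Tnfrsf4 in ILC2 above all, is unknown.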

Other observations

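The receptors of high level in ILC2 lay high among all genes. In ILC210 and ILC2act, Tnfrsf18 was above 97.5% and 98% of the genes of the table, Tnfrsf1b above 96.5% and 95.8%, and Tnfrsf25 above 92.7% and 96.1%. In Treg10+ and Treg10-, Tnfrsf4 lay above 99.6% and 99.4% of genes and Tnfrsf18 above 99.4% and 99.3%. The other receptor genes next to members on chromosome 4 include Tnfrsf8, which lies 20.3 kb from Tnfrsf1b with no coding gene between them. Tnfrsf8 had 6.97 to 8.79 FPKM in ILC210, 7.25 to 11.2 FPKM in ILC2act, 8.99 and 13.3 FPKM in Treg10+ and 5.52 and 6.64 FPKM in Treg10-. Of the 28 receptor genes in the lists used, 7 are on chromosome 4 and 3 on chromosome 6, and 8 of these 10 are among the 9 receptors described.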
